A study of Sus scrofa with 8 samples.

Results

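Open chromatin was compared between 60 h and 0 h in porcine muscle satellite cells whose samples carry the label CBP. The comparison used 2 libraries of CBP_0h and 2 of CBP_60h, which is 4 of the 8 libraries of the series. Peaks of the 4 libraries on chromosomes 1 to 18 and X were merged wherever they overlapped by at least 1 bp, which gave 157866 regions. A region was counted as closed when both 0 h libraries and neither 60 h library had a peak in it, and as opened in the reverse case. By this rule 27507 regions (17.4% of all) closed and 3296 (2.09%) opened, and 61266 (38.8%) were called in all 4 libraries and are termed shared.

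Both groups come from muscle of Sus scrofa, and their cell type is given as muscle satellite cell. CBP_0h is labelled as proliferating and CBP_60h as differentiating. The cell line field reads C3H for every sample, although species and coordinates are those of the pig. The treatment text gives SGC-CBP30 at 5 uM/ml, with exposures of 48 h while cells proliferated and 60 h while they differentiated, and the growth text gives RPMI with serum. It does not say which groups received the compound, and the same text stands on the WT samples, so groups are called by their labels. The series' design text speaks of 3 repeats, and 2 libraries per group were analysed here. Nothing says that the libraries came from separate animals or cultures, so each p-value measures only the spread between libraries, which may be technical.

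Satellite cells are the stem cells of skeletal muscle. They carry PAX7, proliferate as myoblasts under MYF5 and MYOD1, and, when growth factors are withdrawn, leave the cell cycle, switch on MYOG and the sarcomere genes, and fuse into myotubes. CBP, encoded by CREBBP, and its relative EP300 acetylate histones at enhancers and promoters and act as coactivators of MYOD1. SGC-CBP30 occupies the acetyl-lysine pocket of their bromodomains, which is separate from the catalytic domain. ATAC-seq uses a transposase that cuts accessible DNA, so a peak marks a stretch where many cells of the culture had open chromatin. In such bulk libraries, fewer cells with an open site and a less open site in each cell cannot be told apart.

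Of 12 satellite cell markers, 11 had a peak at a gene end in each of the 4 libraries. For 5 smooth muscle and pericyte markers the number was 4 in both 0 h libraries and 5 in both 60 h libraries. For 7 endothelial markers it was 4 and 3 at 0 h and 3 and 3 at 60 h, and for 6 immune markers 5 and 4 at 0 h and 3 and 3 at 60 h. Fibro-adipogenic markers had 3 of 5 in every library, and adipocyte markers 2 of 4. For 5 neural or Schwann markers the number was 2 and 2 at 0 h and 1 and 2 at 60 h. An open gene end is not expression, and the part of other cell types in the results below was not tested.

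The 60 h libraries had fewer peaks, and their peaks covered less of the genome. There were 135528 and 121757 peaks at 0 h and 88871 and 87977 at 60 h. They covered 99.6 and 83.6 Mb at 0 h against 56.2 and 55.2 Mb at 60 h. The median peak was 623 and 573 bp wide at 0 h and 528 and 525 bp at 60 h. Peak summits within 1 kb of either end of a protein-coding gene made up 11.11% and 12.1% at 0 h and 15.0% and 15.2% at 60 h. The groups did not overlap in any of the 4 measures. An exact two-sided permutation test of 2 against 2 libraries cannot go below p = 0.33, which each measure reached. The WT libraries changed in the same direction, with 127394 and 134181 peaks at 0 h and 86282 and 82696 at 60 h. WT peaks covered 89.7 and 95.6 Mb at 0 h and 55.8 and 51.4 Mb at 60 h. Their gene-end share was 11.6% and 11.3% at 0 h and 15.3% and 15.8% at 60 h.

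Sequencing depth moved with time as well. Relative depth, recovered from the background of each list, was 1.84 and 1.32 at 0 h and 1.12 and 1 at 60 h, with the shallowest CBP library set to 1. In WT it was 1.57 and 1.93 at 0 h and 1.03 and 0.927 at 60 h. The deposited lists hold no read totals. Thinning every library to the lowest depth left a mean of 125886 peaks at 0 h and 88280 at 60 h, a ratio of 0.701 against 0.687 as deposited. Thinning acts only on peaks that were called, so it does not remove every effect of depth. With the 87977 strongest peaks of each library, the share at gene ends was 14.4% and 14.6% at 0 h and 15.1% and 15.2% at 60 h. Most of the gap in gene-end share was absent when peak numbers were equal, while covered length still stood at 76.7 Mb at 0 h and 55.6 Mb at 60 h on average.

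**Figure D1:**
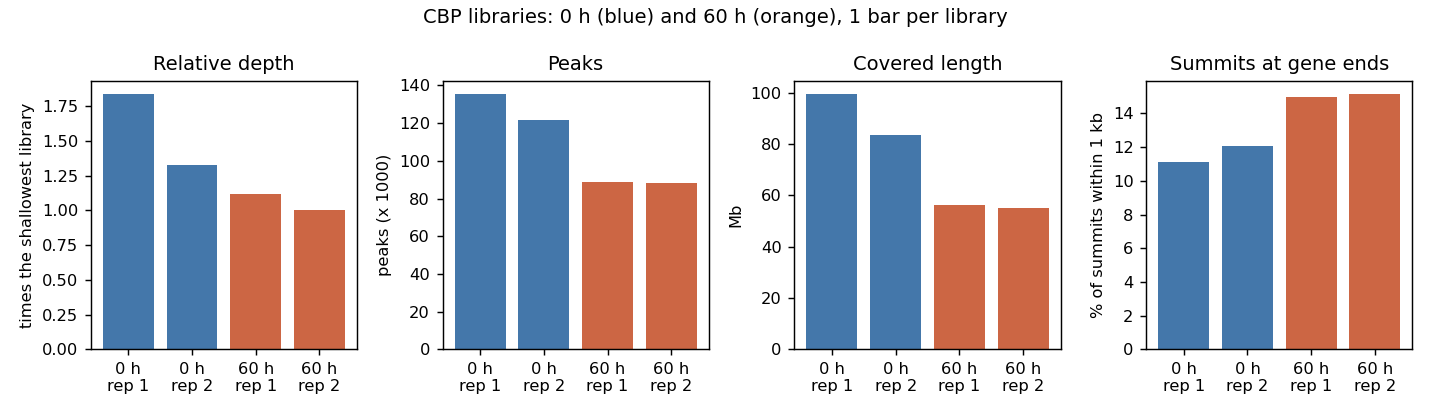
Relative depth, number of peaks, covered length and percentage of summits that fell inside the 1 kb around gene ends, with 1 bar for each CBP library. Both 60 h libraries lie below both 0 h libraries in depth, peaks and covered length, and above them at 15.0% and 15.2% for gene ends.

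Closed regions outnumbered opened regions by 8.35 to 1 as deposited and by 7.66 to 1 after thinning. Thinned lists gave 26769 closed regions (17.4%) and 3495 opened (2.27%). A minimum −log10 q of 5 gave 22.4% and 1.55%, and asking a peak to cover 50% of the region gave 23.0% and 2.34%. When each library kept the same number of peaks, 11607 of 121971 regions closed (9.52%) and 8120 opened (6.66%), a ratio of 1.43 to 1. The direction was the same and the gap was smaller. A rule over 3 libraries asks for fewer calls. Without CBP 0 h replicate 2 it closed 50569 regions, and without CBP 0 h replicate 1, CBP 60 h replicate 1 and CBP 60 h replicate 2 it opened 5867, 8264 and 9476. Replicates at 0 h shared 0.728 of their regions (Jaccard index, the regions in both over those in either) and replicates at 60 h shared 0.680. Libraries of different times shared 0.513 to 0.551. In lists of equal length these values were 0.791, 0.680 and 0.585 to 0.598, so libraries of 1 time shared more than libraries of different times in both forms.

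**Figure D2:**
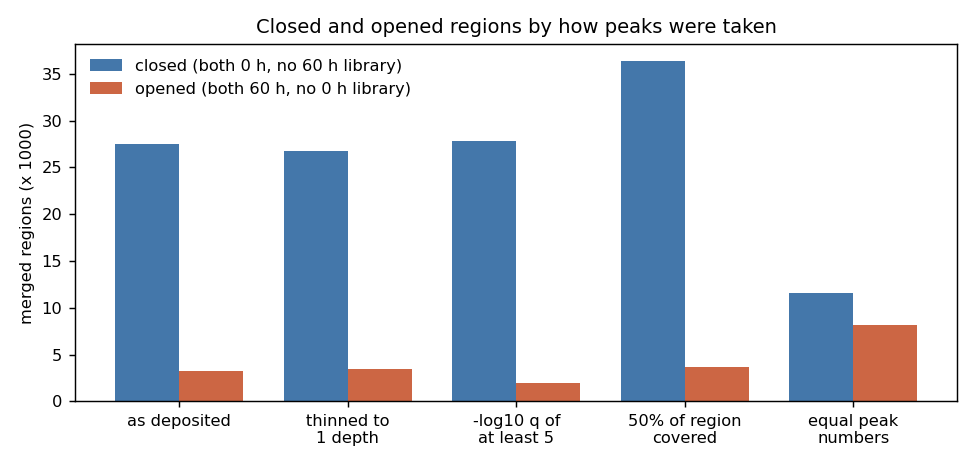
Number of closed and opened regions, for peaks as deposited and for 4 other ways of taking them. Closed regions exceed opened regions in every form, with 27507 against 3296 as deposited and 11607 against 8120 with equal peak numbers.

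Many regions lay just outside the rule. A further 15826 regions were called in both 0 h libraries and 1 of the 60 h libraries, and 30779 in 1 of the 0 h libraries alone. At the other side, 3141 were called in both 60 h libraries and 1 of the 0 h libraries, and 10883 in 1 of the 60 h libraries alone. The median of the higher −log10 q, the peak caller's significance, was 9.37 in closed regions, 11.9 in the first of these classes and 4.52 in the second. For opened regions it was 6.26, against 6.82 and 3.29 in the last 2 classes.

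Closed and opened regions were narrow and seldom lay at gene ends. Within 1 kb of a gene end lay 4.99% of closed and 2.91% of opened regions, against 21.6% of shared and 11.5% of all regions. Beyond 50 kb from any gene end lay 37.3% of closed, 51.2% of opened and 30.0% of shared regions. The median width was 529 bp for closed, 498 bp for opened and 1087 bp for shared regions. A shared region is merged from peaks of every library, and a closed or opened region from peaks of only 0 h or only 60 h. Merging more peaks can widen a region by itself, and how much it did so was not tested. A shared region lay within 10 kb of 52.3% of closed and 42.9% of opened regions. This share was not computed over all regions. Whether either class lay nearer to shared regions than other regions did was not tested. Both classes had lower significance than shared regions. The median of the lower −log10 q was 6.30 in closed against 19.96 in shared regions at 0 h. It was 4.27 in opened against 9.90 in shared regions at 60 h. Peaks are called on this same significance, so regions missed in some libraries tend to be the weaker ones. The rule by itself can give this contrast, and how much it gave was not tested. Across chromosomes, the closed share ran from 15.3% on chromosome 12 to 18.4% on chromosome 8, and the opened share from 1.40% on chromosome 12 to 2.89% on chromosome 15.

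The strongest closed regions were well above the calling threshold in both 0 h libraries. The first, chr4:16298908-16300035, lies outside genes and nearest to DERL1, which encodes a protein of the endoplasmic reticulum's degradation machinery. Its −log10 q was 60.98 and 52.9 at 0 h. The same region was called in WT at 0 h (72.4 and 76.2) and at 60 h (23.4 and 17.7). A region inside ZRANB3, chr15:16527560-16528906, had 50.3 and 48.2 at 0 h. The region chr18:15954765-15956182, nearest to EXOC4, a subunit of the exocyst that tethers secretory vesicles, had 58.3 and 46.1. The region chr8:24829258-24830191, in a gene desert near the protocadherin gene PCDH7, had 52.8 and 43.03. The other 4 of the 8 strongest were nearest to LOC100155289, XKR6, ZNF664 and RNF14. Both WT 60 h libraries had a peak in 6 of these 8, against 14.6% of all closed regions.

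The strongest opened regions had lower values than the strongest closed ones, in shallower libraries. The region chr13:20873442-20874316, outside genes and nearest to ARPP21, had a −log10 q of 21.6 and 25.9 at 60 h, and it was called in all 4 WT libraries. The region chr3:81921169-81921963, in a desert nearest to BCL11A, had 19.6 and 21.04 and was likewise called in all WT libraries. A region nearest to ZSWIM2, chr15:91893255-91893830, had 23.7 and 18.97. The region chr5:93555116-93556240, nearest to DUSP6, a phosphatase that switches off ERK, had 18.9 and 20.9. The region chr13:16687649-16688628 had 18.7 and 20.9 and is nearest to TGFBR2, the type II receptor for TGF-beta, whose end is 95742 bp away. At chr9:108339159-108340470, 1717 bp from an end of LOC106505000, the values were 18.7 and 19.998, and 1 WT library had a peak. The region chr15:48959003-48959992, nearest to ZNF703, had 17.97 and 17.1, and chr8:35589859-35590694, nearest to GNPDA2, had 17.5 and 16.9. The last of these was called in no WT library. The ZSWIM2, DUSP6 and ZNF703 regions were called in both WT libraries of 60 h and in neither of 0 h.

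Regions were linked to the nearest end of a protein-coding gene within 50 kb, which joined 101885 regions (64.5%) to 17314 genes. Among linked regions 16.9% closed and 1.58% opened as deposited, and 9.06% and 5.50% with equal peak numbers. More closed than opened regions were linked to 8655 genes and more opened than closed to 444. In lists of equal length these were 4105 and 2152 of 16880 genes.

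The genes with most closed regions were spread over several functions. PAX7, the transcription factor that defines satellite cells, had 10 closed of 31 linked regions, none opened and 7 shared. GALNT7, which acts in mucin-type O-glycosylation, had 10 of 24, and DISP1, which releases Hedgehog ligands from the cells that make them, had 10 of 25. Each of TTC39B, ARID5B, IQGAP1, GLIS1, GPD2, SLC38A4 and STON2 had 9. IQGAP1 encodes an actin-binding scaffold and had 17 linked regions in all. GPD2 encodes the mitochondrial glycerol-3-phosphate dehydrogenase and SLC38A4 an amino acid transporter. In the lists of equal length GPD2 led with 7 closed and 1 opened, followed by AUH, SUDS3 and SLC38A4 with 6 closed and none opened, and IWS1 with 5. PAX7 had 3 closed and 1 opened of 18 in that form.

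By share of linked regions, CNTN3, a contactin, had 7 of 8 closed, and GUCY2D, a guanylate cyclase best known from the retina, 5 of 6. HDAC1, a class I histone deacetylase that binds MYOD1 in myoblasts, had 4 of 5, and so did LOC100624435 and TRAPPC8. The 4 closed HDAC1 regions lie inside the gene. The strongest, chr6:88761437-88761847, had a −log10 q of 15.8 and 18.3 at 0 h. In lists of equal length 3 of the 5 HDAC1 regions and 2 of 7 CNTN3 regions closed. GUCY2D had 5 of 6 closed in that form too.

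Genes with most opened regions had small counts. NXPE2 had 5 opened and 1 closed of 11. ABCC9, the regulatory subunit of ATP-sensitive potassium channels of muscle and pericytes, had 3 opened of 11, and the protocadherin gene PCDH19 3 of 14. TNC, which encodes the matrix protein tenascin C, had 3 opened and 1 closed of 26. GRAP2, LOC100517855, ACTC1, RBPMS, STMN4 and STC1 had 2 opened and none closed. ACTC1 encodes cardiac alpha-actin, which young myotubes also make. Among genes with at least 5 linked regions, FBXL13 had 3 opened of 7, and ACCSL, LOC100522141 and CEP41 had 2 of 5. The largest net counts in lists of equal length were those of RGS8 (8 opened, 1 closed), IGSF3 (7 and 2), ANKRD55 (5 and 0), TNC (5 and 0) and NXPE2 (6 and 1). For RGS8, IGSF3, RBPMS, GRAP2, TNC, FBXL13 and ACCSL the sign of the net count turned in at least 1 other form.

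Counts for 23 gene lists were read beside the shares over all linked regions. Of the list of myogenic regulators, 34 of 254 linked regions closed and 6 opened (13.4% and 2.36%), and with equal peak numbers 14 closed and 15 opened of 193, which turned the sign of the net count. Closed regions were most numerous at MEF2C (5 of 35), the MADS-box partner of the myogenic factors, and at TEAD1 (4 of 27), which binds MCAT elements of muscle promoters. At MEF2C the strongest, chr2:96329018-96329387, had a −log10 q of 22.98 and 16.8 at 0 h. MYF6, a bHLH factor of late differentiation, had 3 of 5 closed. MYOD1 had 2 of 8 closed: chr2:41421556-41422280, 242 bp from a gene end, with 7.87 and 10.8, and chr2:41434887-41436405, with 14.8 and 8.35. The second was called in all 4 WT libraries.

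Several opened regions lay at genes of terminal differentiation. MYOG, which drives exit into terminal differentiation, had 1 of 9 opened, chr9:113801867-113802424, outside the gene and 16555 bp from its end. It had 7.10 and 6.16 at 60 h in CBP, and WT had 13.3 and 18.5 at 0 h and 8.04 and 9.87 at 60 h. MYMK, the membrane protein myomaker that myoblasts need for fusion, had 2 of 7 opened. The region inside MYMK, chr1:273110173-273110619, had 4.69 and 6.48 in CBP at 60 h and was called in all 4 WT libraries. The one at the MYMK end, chr1:273111581-273111900, had 3.84 and 5.51 and was called in 3 WT libraries. The rule requires an opened region to have no peak in CBP at 0 h, and 17.9% of all opened regions were called in both WT 0 h libraries. At MYF5 the opened region chr5:100753959-100754555 had 6.01 and 2.69 in CBP at 60 h and 21.9 and 31.2 in WT at 0 h.

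For sarcomere and contraction, 51 of 267 linked regions closed and 11 opened (19.1% and 4.12%), and with equal peak numbers 27 closed and 23 opened of 217. MYOM2, an M-band protein, had 5 of 19 closed, and XIRP2 and MYBPC1 had 4 each. At ACTC1, chr1:136273810-136274304 opened with a −log10 q of 9.71 and 9.33 and was called in no WT library. The other ACTC1 region, chr1:136287316-136288142, had 2.45 and 6.29 and was called in 3 WT libraries. ACTN2, which anchors actin at the Z-disc, had 3 closed and 2 opened of 11. For myoblast fusion and adhesion, 57 of 346 linked regions closed and 5 opened (16.5% and 1.45%), led by the N-cadherin gene CDH2 (7 of 18 closed) and NCAM1 (6 of 20). For calcium handling, 28 of 186 linked regions closed and 2 opened (15.1% and 1.08%). Over the lists of myogenic regulators, sarcomere genes and fusion genes together, 22 regions opened, of which 7 were called in both WT 0 h libraries and 8 in no WT library, where all opened regions had 17.9% and 46.8%. Of their 142 closed regions, 99 were called in both WT 0 h libraries and 55 closed by the same rule in WT, where all closed regions had 70.4% and 38.5%.

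Satellite cell and quiescence genes held the largest closed share of the 23 lists as deposited: 66 of 272 linked regions closed and 8 opened (24.3% and 2.94%). They held 26 closed and 21 opened of 210 with equal peak numbers, where all linked regions had 9.06% and 5.50%. PAX7 contributed 10 closed regions, MEGF10, a receptor of quiescent satellite cells, 8 of 25, the FOXO1 gene 8 of 27 and the FOXO3 gene 7 of 26. MET, the receptor for HGF, had 6 of 23 and SPRY1, which damps signals from receptor tyrosine kinases, 6 of 16. At PAX7 the strongest closed region by its weaker library, chr6:77288753-77289868, had a −log10 q of 12.8 and 11.3 at 0 h, and 7 of the 10 lie inside the gene. Neither WT 60 h library had a peak in 7 of these 10 PAX7 regions. Of all closed regions, only 26.8% and 23.2% had a peak in the WT 60 h libraries, so most lacked one there too.

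**Figure D3:**
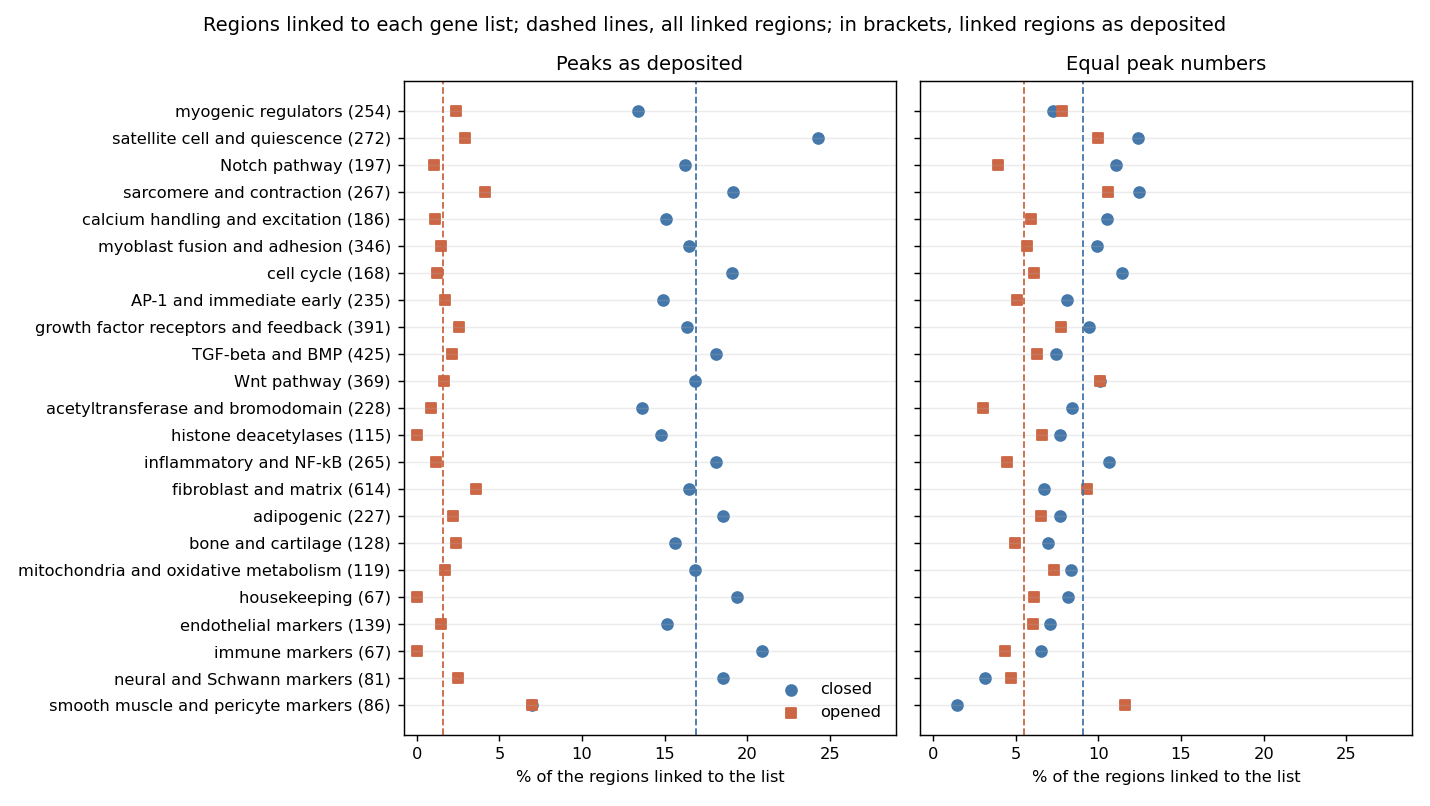
Share of the regions linked to each of 23 gene lists that closed (circles) or opened (squares), as deposited and with equal peak numbers, with dashed lines at the share over all linked regions (16.9% and 1.58% as deposited, 9.06% and 5.50% with equal numbers). Satellite cell and quiescence genes have the highest closed share as deposited and smooth muscle and pericyte markers the lowest in both forms.

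Signalling lists had closed shares of 16.2% to 18.1% as deposited, near the 16.9% over all linked regions, while their opened shares spread more widely. Of Notch pathway regions, which keep satellite cells quiescent, 32 of 197 linked regions closed and 2 opened (16.2% and 1.02%), with RBPJ, the DNA-binding factor of the pathway, at 5 of 32 closed and MAML2 at 4 closed and 2 opened. Of TGF-beta and BMP regions, 77 of 425 linked regions closed and 9 opened (18.1% and 2.12%), led by TGFB2 (8 of 24), the latent TGF-beta binding protein LTBP1 (7 of 21) and the inhibitory SMAD6 (6 of 28). BMP2 had 2 of 9 opened and none closed, and both of its opened regions were called in no WT library. Of Wnt pathway regions, 62 of 369 linked regions closed and 6 opened (16.8% and 1.63%), and with equal peak numbers 29 closed and 29 opened of 287, an opened share of 10.1% against 5.50% over all linked regions. TCF7L2, a nuclear effector of the pathway, had 7 of 29 closed and the ligand RSPO3 6 of 17. Of growth factor receptor and feedback regions, 64 of 391 linked regions closed and 10 opened (16.4% and 2.56%), and with equal peak numbers 28 closed and 23 opened of 297, with the PI3-kinase subunit PIK3R1 at 7 of 26 closed.

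Genes for acetyltransferases and bromodomain proteins had 31 of 228 linked regions closed and 2 opened (13.6% and 0.877%). CREBBP itself had 4 of 17 closed and none opened, and EP300 had 0 of 5 closed and none opened. KAT2B, KAT6B and BPTF had 3 closed each. Of regions of histone deacetylase and corepressor genes, 17 of 115 linked regions closed and none opened (14.8%). Of AP-1 and immediate early regions, 35 of 235 linked regions closed and 4 opened (14.9% and 1.70%), with DUSP5 (5 of 15), a MAP kinase phosphatase, at the top. Of inflammatory and NF-kB regions, 48 of 265 linked regions closed and 3 opened (18.1% and 1.13%), with NFKB1 at 6 of 17. Of cell cycle regions, 32 of 168 linked regions closed and 2 opened (19.05% and 1.19%), with RBL1, a relative of the retinoblastoma protein, at 4 of 9 and CCND1 at 3 of 9.

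Fibroblast and matrix genes, the list with most linked regions, also had the most opened ones: 101 of 614 linked regions closed and 22 opened (16.4% and 3.58%). In lists of equal length opened exceeded closed ones, with 33 closed and 46 opened of 494. COL15A1, a basement membrane collagen, had 9 of 31 closed and COL4A2 7 of 17. Opened regions were linked to TNC (3), GAS1 (2), PRRX1, PLOD2, COL6A3 and COL12A1 (2 each). All 3 opened TNC regions lie inside the gene, and the strongest, chr1:255580482-255581347, had a −log10 q of 11.3 and 7.88. Smooth muscle and pericyte markers had 6 of 86 linked regions closed and 6 opened (6.98% and 6.98%), and with equal peak numbers 1 closed and 8 opened of 69. Of these 6 opened regions, ABCC9 gave 3 and SMTN, which encodes smoothelin, 2. Adipogenic genes had 42 of 227 linked regions closed and 5 opened (18.5% and 2.20%), with CEBPA at 6 of 12.

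The remaining lists gave the following counts. Of bone and cartilage regions, 20 of 128 linked regions closed and 3 opened (15.6% and 2.34%). Of mitochondrial and oxidative metabolism regions, 20 of 119 linked regions closed and 2 opened (16.8% and 1.68%). Of housekeeping regions, 13 of 67 linked regions closed and none opened (19.4%), with YWHAZ at 5 of 17. Of endothelial marker regions, 21 of 139 linked regions closed and 2 opened (15.1% and 1.44%), of immune marker regions, 14 of 67 linked regions closed and none opened (20.9%), and of neural and Schwann marker regions, 15 of 81 linked regions closed and 2 opened (18.5% and 2.47%).

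The WT libraries, which the rule did not use, gave the same measure in other samples. CBP-closed regions were called in 77.2% and 81.8% of cases in WT at 0 h and in 26.8% and 23.2% at 60 h. Over all CBP regions the shares were 70.9% and 73.9% at 0 h and 49.2% and 46.8% at 60 h. The same rule within WT closed 38.5% of the CBP-closed regions (10591), and 10.5% were called in no WT library. CBP-opened regions were called in 25.5% and 28.0% at 0 h and in 33.8% and 31.1% at 60 h in WT. Within WT, 7.13% of them (235) opened by the same rule, and 46.8% (1542) were called in no WT library. Of all CBP regions, the same rule within WT closed 15.5% and opened 0.520%, and 18.9% were called in no WT library. How many of the missing WT calls lie just under the authors' threshold was not tested. With equal peak numbers in 8 libraries, the means were 20.4% at 0 h and 46.8% at 60 h for opened regions, and 75.7% and 39.0% for closed regions. Over all CBP regions they were 67.2% and 62.3% in that form.

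**Figure D4:**
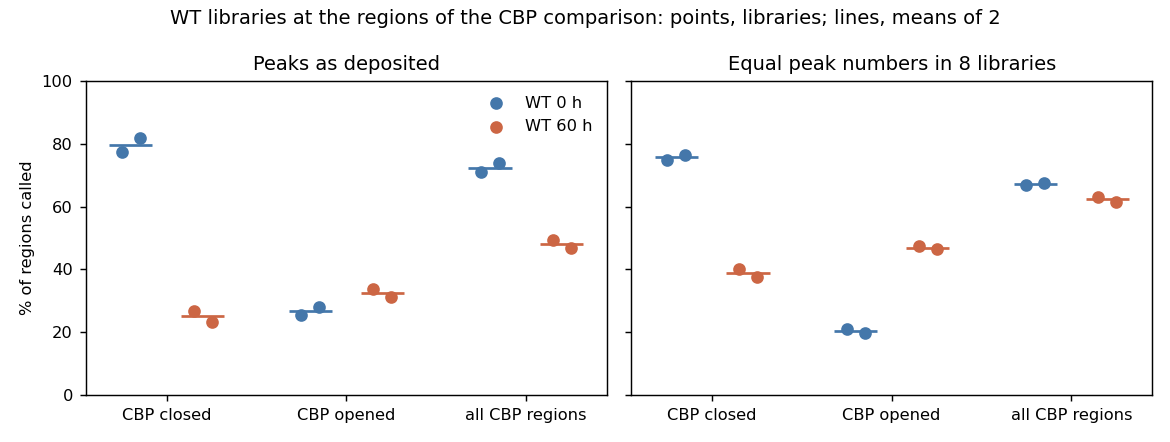
Share of the CBP-closed, CBP-opened and all CBP regions that had a peak in each WT library, as deposited and with equal peak numbers. At CBP-opened regions WT 60 h lies at 33.8% and 31.1% against 25.5% and 28.0% for WT 0 h as deposited, and the gap is wider with equal peak numbers.

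Changes within the 61266 shared regions were measured by summit height, the pileup at the summit divided by the background of the library. This measure and its test were added after the calls had been seen. The median height was 15.6 and 16.3 at 0 h and 11.97 and 12.9 at 60 h, a median shift of -0.36 on the log2 scale, and changes below are given relative to it. A region was called higher or lower only when limma's adjusted p was under 0.05 in the same direction both with and without that centring. By this rule 2374 regions were higher (3.87%) and 6698 lower (10.9%). The fit moderated each region's variance toward a trend over all shared regions. With 2 libraries a group, each p-value and SE rests mostly on spread between libraries pooled across regions. It rests little on that region's own 4 libraries. With centring alone the counts were 17445 higher and 6698 lower, and with the background scale alone 2374 and 15410, so the balance of the directions rests on the scale. A shared region needs a peak in all 4 libraries, which leaves out regions with low heights at either time. Of the higher regions 19.9% and of the lower 24.1% were called without each library in turn, and the regions described below as risen or fallen are among these, except the PAX3 end. Without CBP 0 h replicate 1, CBP 0 h replicate 2 and CBP 60 h replicate 2 the count of higher regions was 873, 1014 and 1533. The count of lower regions lay between 2343 and 3986 without any 1 library. The regions at listed genes that are described as risen or fallen were picked after their values had been seen. Gene ends of known regulators are given whether called or not.

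The largest rise was in chr2:120996026-120997015, in a gene desert nearest to the semaphorin gene SEMA6A. Its height was 4.94 and 4.34 at 0 h and 20.5 and 19.6 at 60 h, a log2 change of 2.47 ± 0.23 (SE, n = 2 against 2; limma adjusted p = 2.40e-18). A region inside MET, chr18:29438377-29439362, had 4.16 and 6.14 at 0 h and 17.9 and 22.96 at 60 h, a log2 change of 2.36 ± 0.22 (SE, n = 2 against 2; limma adjusted p = 1.66e-17). Both 60 h values lay above both 0 h values by more than the spread of either pair. In WT the heights at this MET region were 7.02 and 6.43 at 0 h and 7.91 and 7.74 at 60 h. Other regions with large rises were nearest to CCNL1, CSTF3, HMCN1, USP54, MAN2A1, ZNF608, CRBN and ADORA1, with log2 changes from 2.12 to 2.39. The ADORA1 region, chr9:113817405-113818393, lies on the same stretch of chromosome 9 as MYOG.

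The largest fall was inside KCNQ5, a potassium channel gene, at chr1:52590493-52591914. Its height was 21.9 and 27.8 at 0 h and 3.85 and 6.22 at 60 h, a log2 change of -1.98 ± 0.22 (SE, n = 2 against 2; limma adjusted p = 6.10e-14). WT had 26.6 and 22.7 at 0 h and 17.7 and 25.3 at 60 h there, so the WT times overlapped. At chr10:9155065-9156586, nearest to LYPLAL1, the heights were 23.7 and 29.3 at 0 h and 5.56 and 5.74 at 60 h, a log2 change of -1.86 ± 0.20 (SE, n = 2 against 2; limma adjusted p = 4.92e-14). Regions nearest to BRINP3, SMC3, POLE2, CDH7, FUT11, ARG2, SLC36A1 and SERPINB2 fell as well, with log2 changes from -1.78 to -1.65. POLE2 encodes a subunit of DNA polymerase epsilon and SMC3 a cohesin subunit.

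Regions at 4 genes of contraction and differentiation rose. The region at the MYOG gene end, chr9:113784734-113785785, had a height of 8.32 and 6.86 at 0 h and 17.5 and 20.1 at 60 h, a log2 change of 1.67 ± 0.21 (SE, n = 2 against 2; limma adjusted p = 1.62e-11). In WT this region had 15.3 and 17.1 at 0 h and no call and 18.6 at 60 h, so the WT 0 h values were near the CBP 60 h values. The region at the ACTC1 end, chr1:136280753-136281443, had 16.4 and 14.5 at 0 h and 26.9 and 32.04 at 60 h, a log2 change of 1.29 ± 0.15 (SE, n = 2 against 2; limma adjusted p = 5.52e-13). RYR1, the calcium release channel of the sarcoplasmic reticulum, had 7.54 and 10.1 at 0 h and 17.9 and 22.5 at 60 h at chr6:47340456-47341259, a log2 change of 1.56 ± 0.19 (SE, n = 2 against 2; limma adjusted p = 2.23e-11). A region inside MYOM1, which encodes the M-band protein myomesin, had 6.76 and 4.34 at 0 h and 14.5 and 19.6 at 60 h, a log2 change of 1.998 ± 0.23 (SE, n = 2 against 2; limma adjusted p = 8.82e-13). In WT the RYR1 heights were 22.9 and 17.6 at 0 h and 29.8 and 24.8 at 60 h and those at MYOM1 16.8 and 13.6 at 0 h and 18.2 and 23.2 at 60 h. The region near MYH7, the slow myosin heavy chain gene, fell, with 22.1 and 24.9 at 0 h and 8.97 and 9.56 at 60 h.

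The gene ends of MYOD1, MYF5 and PAX7 were not called, and that of PAX3, the relative of PAX7 that acts in muscle precursors, fell. The MYOD1 end, chr2:41422502-41424966, had a height of 30.96 and 30.7 at 0 h and 23.5 and 30.1 at 60 h. Its log2 change was 0.15 with centring (limma adjusted p = 0.392) and -0.21 without (limma adjusted p = 0.352). The MYF5 end had 34.1 and 35.4 at 0 h and 29.1 and 29.2 at 60 h. Its log2 change was 0.10 with centring (limma adjusted p = 0.542) and -0.25 without (limma adjusted p = 0.243). The PAX7 end had 22.6 and 27.8 at 0 h and 25.2 and 23.4 at 60 h. There the log2 change was 0.31 with centring (limma adjusted p = 0.0601) and -0.046 without (limma adjusted p = 0.871). The PAX3 end, chr15:124192426-124193622, had 21.3 and 27.1 at 0 h and 11.11 and 12.4 at 60 h, a log2 change of -0.67 ± 0.17 (SE, n = 2 against 2; limma adjusted p = 5.51e-04), and the call was lost without CBP 0 h replicate 2. In WT it had 18.02 and 20.03 at 0 h and 17.2 and 14.96 at 60 h. The end of DES, the muscle intermediate filament gene, had 16.9 and 20.2 at 0 h and 22.6 and 26.3 at 60 h, which passed with centring alone. Of all shared regions linked to myogenic regulators, 6 of 100 were higher and 5 lower, where all linked shared regions gave 3.13% and 9.76%. Sarcomere and contraction genes had 8 higher and 9 lower of 98. The median log2 change was 0.27 and 0.18 in these lists and 0.19 over all linked shared regions. Calcium handling genes, which include RYR1, had 2 higher and 7 lower of 74 (2.70% and 9.46%).

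Regions at satellite cell genes moved both ways. The satellite cell and quiescence list had 4 higher and 10 lower of 104 shared regions (3.85% and 9.62%). These shares were near the 3.13% and 9.76% over all linked shared regions. Myoblast fusion and adhesion genes had 6 higher and 21 lower of 151 (3.97% and 13.9%). Notch pathway genes had 4 higher and 12 lower of 82 (4.88% and 14.6%). A region inside ITGA7, the laminin receptor alpha-7 integrin of satellite cells and myofibres, had a height of 29.1 and 36.5 at 0 h and 7.69 and 8.61 at 60 h at chr5:21133470-21135006, a log2 change of -1.64 ± 0.17 (SE, n = 2 against 2; limma adjusted p = 3.66e-15). In WT it had 27.8 and 24.98 at 0 h and 13.5 and 10.8 at 60 h. A second MET region, chr18:29518330-29519472, had 15.3 and 16.3 at 0 h and 3.85 and 6.70 at 60 h, a log2 change of -1.28 ± 0.24 (SE, n = 2 against 2; limma adjusted p = 3.72e-06), opposite in direction to the first. MEGF10 held 1 region that rose (chr2:130356964-130357996, log2 change 1.74) and 1 that fell (chr2:130399007-130400090, -0.96). ADAM12, a metalloproteinase of fusing myoblasts, likewise had 1.41 at chr14:135648355-135649654 and -1.02 at chr14:135633268-135634365. CALCR, the calcitonin receptor of quiescent satellite cells, held a region that fell by 1.15 and NOTCH2 one that fell by 1.20 on the log2 scale, while a region inside HEYL, a Notch target, rose by 1.34.

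Shared regions at AP-1, signalling and coactivator genes included some that fell. BATF3, an AP-1 family member, had a height of 23.9 and 25.3 at 0 h and 6.41 and 8.13 at 60 h at chr9:130683896-130685216, a log2 change of -1.41 ± 0.19 (SE, n = 2 against 2; limma adjusted p = 9.15e-10). A region of ATF3 fell by 1.12 and one near JUN by 0.74 on the log2 scale. A region near SPRY4, a feedback inhibitor of FGF signalling, fell by 1.24, and a SMAD6 region by 1.36. A region inside EP300, chr5:7312291-7313603, had 17.2 and 20.2 at 0 h and 8.97 and 6.70 at 60 h, a log2 change of -0.91 ± 0.21 (SE, n = 2 against 2; limma adjusted p = 1.54e-04). A region near CDKN1A, the cell cycle inhibitor p21, had 20.3 and 22.4 at 0 h and 7.69 and 9.09 at 60 h, a log2 change of -0.99 ± 0.19 (SE, n = 2 against 2; limma adjusted p = 1.06e-05), and WT had 25.95 and 22.3 at 0 h and 21.4 and 21.2 at 60 h there. By calls, CDKN1A had 1 closed and 1 opened of 8 linked regions. The opened one, chr7:32348528-32348816, was called in both WT 60 h libraries and neither WT 0 h library. Cell cycle genes had 4 higher and 7 lower of 74 shared regions (5.41% and 9.46%). Over the AP-1 and immediate early list, 3 of 129 shared regions were higher and 17 lower (2.33% and 13.2%, against 3.13% and 9.76% over all linked shared regions). The acetyltransferase and bromodomain list had 4 higher and 7 lower of 95 (4.21% and 7.37%), with a median log2 change of 0.34 against 0.19, so its lower share was under that of all linked shared regions although the EP300 region fell. Growth factor receptor and feedback genes, which include SPRY4, had 3 higher and 10 lower of 153 (1.96% and 6.54%). TGF-beta and BMP genes, which include SMAD6, had 11 higher and 23 lower of 186 (5.91% and 12.4%).

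Matrix genes again showed both directions. COL8A1, a short-chain collagen, had a height of 4.42 and 6.50 at 0 h and 15.8 and 20.6 at 60 h at chr13:159233604-159234365, a log2 change of 2.11 ± 0.23 (SE, n = 2 against 2; limma adjusted p = 2.67e-14). A region near POSTN, which encodes periostin, had 6.76 and 4.70 at 0 h and 13.7 and 13.4 at 60 h, a log2 change of 1.62 ± 0.24 (SE, n = 2 against 2; limma adjusted p = 8.86e-09). A region linked to TIMP3, an inhibitor of metalloproteinases, had 10.7 and 14.1 at 0 h and 24.8 and 28.7 at 60 h, a log2 change of 1.48 ± 0.16 (SE, n = 2 against 2; limma adjusted p = 4.48e-14). A region inside PRRX1, a mesenchymal homeobox gene, had 23.7 and 25.7 at 0 h and 5.56 and 8.61 at 60 h, a log2 change of -1.48 ± 0.20 (SE, n = 2 against 2; limma adjusted p = 3.40e-10), where WT had 23.8 and 23.2 at 0 h and 20.02 and 17.03 at 60 h. The fibroblast and matrix list had 18 higher and 20 lower of 269 shared regions (6.69% and 7.43%). Over all linked shared regions the shares were 3.13% and 9.76%, so this list was above them for higher regions and below them for lower ones. Endothelial markers had 0 higher and 9 lower of 50, a lower share above the 9.76% over all linked shared regions.

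**Figure D5:**
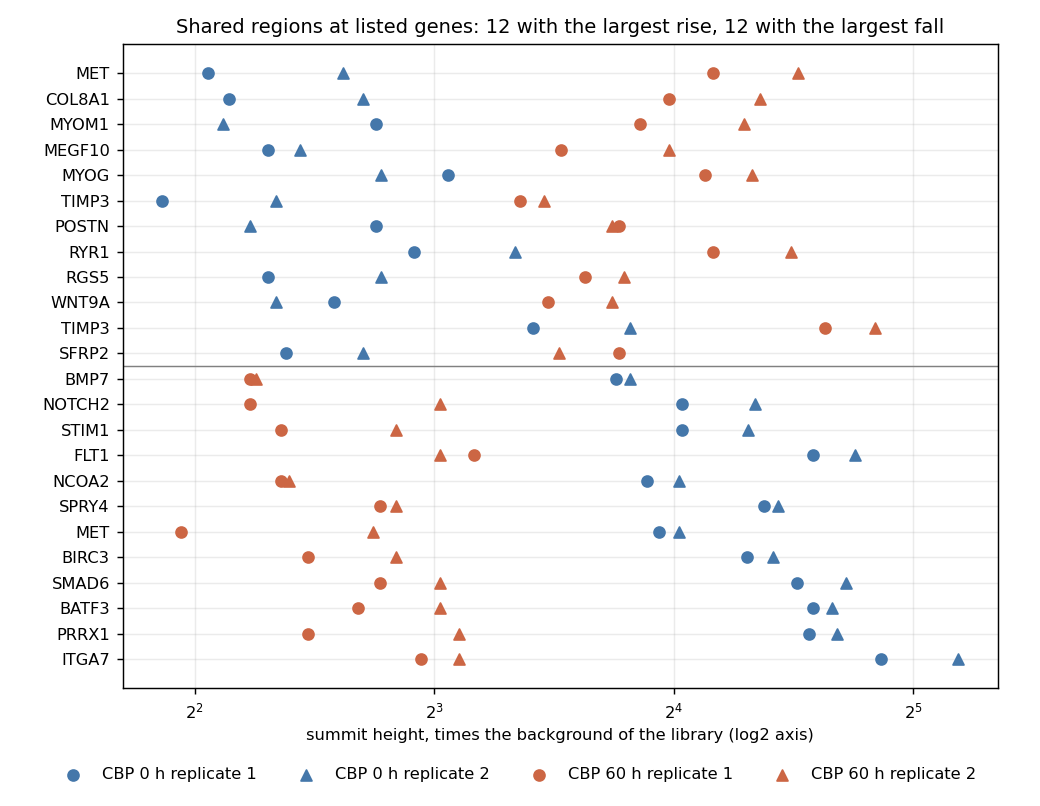
Summit heights, as multiples of each library's background on a log2 axis, in the 4 CBP libraries at 12 shared regions of listed genes with the largest rise and 12 with the largest fall among those called without each library in turn. In each of these regions the 2 values of 60 h lie wholly above or wholly below the 2 values of 0 h, with MET in both sets.

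Higher and lower regions differed in place. Of the higher regions 13.4% lay within 1 kb of a gene end, and of the lower 4.57%, against 21.6% of all shared regions. In WT, 1840 of the higher and 5997 of the lower regions were called in all 4 libraries. Among these, WT heights centred by library median moved the same way, without overlap between the times, in 74.9% of the higher and 61.2% of the lower regions. Over all shared regions called in all WT libraries, 41.7% were higher and 23.0% lower without overlap in WT.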

How the data were processed

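ATAC-seq peak lists of 8 libraries were used, 4 of them for the comparison of CBP 60 h with CBP 0 h. Per the submitters' processing notes, Trimmomatic and MACS2 2.1.0 are named with Sscrofa11.1. How reads were aligned, deduplicated or shifted for the transposase is not given in the sources used here, and other choices would move peak edges and heights. The authors deposited a peak list for each library, not a pooled one. Its columns hold a score, the fold over the local background, the significance as −log10 p-value and −log10 q-value, and how far the summit lies from the peak start, all made by the authors' peak caller before they were deposited. The score was not used.

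From fold and −log10 p, the pileup and background at each summit were recovered. Pileups were whole numbers in 100% of cases, within 0.01 on the −log10 p scale. The most frequent background of a library served as its relative depth, and the pileup divided by it is the height. Log2 heights of regions called in all 4 libraries were fitted with limma 3.58.1 (trend on mean height, Benjamini-Hochberg adjustment over 61266 regions). No count test was used. Regions were linked to either end of the nearest protein-coding gene within 50 kb in the RefSeq table for Sscrofa11.1, which gives no strand, exons or introns here, so a gene end may be a start or a stop. The lists hold 585 entries; 559 were found in the table, 551 of them with at least 1 linked region. The members and gene lists were chosen with earlier results of these data known. Named genes were the 10 with most net closed and 10 with most net opened regions, the first 5 of each with equal peak numbers, the first 5 of each by share among genes with at least 5 linked regions, and leading members and known regulators of each list. Named regions were the 8 closed and 8 opened with the highest lower −log10 q. Calculations were tested on simulated data. Alternatives were equal peak numbers, a −log10 q of at least 5, thinning, 50% coverage of a region, merging over 8 libraries, links within 10 kb or 1 kb, a replicate block and leaving out each library.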

Additional observations from a re-analysis of the deposited data

Results flagged for a closer look

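In 4 shared regions at listed genes both 60 h values lay below both 0 h values in CBP, where the change was called lower, and above both 0 h values in WT, with and without centring. Of all 5997 lower shared regions called in every WT library, 172 (2.87%) showed this pattern, and of the 199 linked to listed genes these 4 (2.01%). The difference between the CBP and WT changes was not tested. The TNC region chr1:255550709-255551320, inside the tenascin C gene, had heights of 17.2 and 20.6 at 0 h and 9.83 and 10.04 at 60 h in CBP, a log2 change of -0.56 (limma adjusted p = 0.0119), and 21.98 and 22.5 at 0 h and 30.3 and 32.5 at 60 h in WT. The call was lost without any 1 of the 4 libraries. The MAML1 region chr2:78843673-78844247, at the gene of a Notch coactivator, had heights of 24.97 and 30.7 at 0 h and 11.97 and 15.8 at 60 h in CBP, a log2 change of -0.65 (limma adjusted p = 2.82e-04), and 24.4 and 22.5 at 0 h and 24.7 and 26.3 at 60 h in WT. The call was lost without CBP 0 h replicate 2 or CBP 60 h replicate 1. The COL1A2 region chr9:74190055-74190838, at the gene of a type I collagen chain, had heights of 24.97 and 27.5 at 0 h and 14.96 and 16.7 at 60 h in CBP, a log2 change of -0.37 (limma adjusted p = 0.0400), and 27.2 and 26.95 at 0 h and 28.9 and 29.4 at 60 h in WT. The call was lost without any 1 of the 4 libraries. The CCL2 region chr12:40830002-40830852, at the gene of a monocyte chemokine, had heights of 18.99 and 23.8 at 0 h and 10.7 and 12.4 at 60 h in CBP, a log2 change of -0.53 (limma adjusted p = 0.0105), and 18.3 and 17.6 at 0 h and 19.6 and 19.6 at 60 h in WT. The call was lost without any 1 of the 4 libraries.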

How the results depend on the processing

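Depth limits these calls, since the 0 h libraries were deeper, read totals were not used, and a missing peak can be a peak under the threshold. Thinning to 1 depth moved the ratio of closed to opened regions from 8.35 to 7.66, and equal peak numbers moved it to 1.43. With 2 libraries a group no exact test can pass. The ratios of peak number, covered length and width and the gene-end share kept their direction under a −log10 q of at least 5 and thinning. They also did under equal peak numbers, except for peak number, which that form fixes. Thinning drops peaks and keeps the edges of the rest, so it does not correct their widths for depth. The replicate block and leaving out 1 library could not turn the direction, since the groups did not overlap in these measures. In lists of equal length 11607 regions closed and 8120 opened, and the q minimum gave 1923 opened. Without 1 library, closed regions numbered 35490 to 50569 and opened regions 3990 to 9476. The change in the share called in WT, -54.5 percentage points at closed and 5.73 at opened regions, was -36.8 and 26.5 with equal peak numbers and -59.9 and 2.70 with the q minimum. Over all CBP regions this change was -24.4 as deposited, -4.93 with equal peak numbers and -30.0 with the q minimum. At opened regions it was 7.85 after thinning over 8 libraries, an alternative added after seeing the data, as were all alternatives for heights.

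Shared regions higher and lower were 139 and 502 with a −log10 q of at least 20 in all 4 libraries, where fewer regions were tested. Median centring alone gave 17445 higher, the background scale alone 15410 lower, and quantile normalisation alone 5835 higher. Without 1 library, 873 to 2799 were higher and 2343 to 3986 lower. Same-numbered replicates share only a number: their deviations from group means correlated at 0.0183. With the replicate block, 4057 regions were higher and 6894 lower, the closed and opened counts stayed 27507 and 3296 since both pairs must then change, and the ratio of peak numbers was 0.688 (exact sign-flip p = 0.5, the smallest that 2 pairs can give). For the regions chosen because they were called without each library in turn, and the 10 largest rises and falls, all 552 values under the block, without 1 library or with quantile normalisation kept direction and call, which that choice fixes in part. For the TNC, MAML1, COL1A2 and CCL2 regions named above and the PAX3, MYOD1, MYF5, PAX7 and DES ends, 34 values kept both, 15 lost the call, 3, all at DES, gained one, and 2 turned sign with quantile normalisation alone, to -0.24 at MYF5 and -0.13 at MYOD1, neither called.

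The net count (opened minus closed) turned under equal peak numbers to 1 for myogenic regulators, 13 for fibroblast and matrix genes, 1 for neural and Schwann markers and 5 for IGSF3. With the q minimum it turned to -1 for ACCSL, GRAP2 and TNC, -6 for RBPMS and -3 for RGS8. With 50% coverage it was -1 for FBXL13 and RGS8, with links within 10 kb -1 for ACCSL, FBXL13 and TNC, and with links within 1 kb 1 for IGSF3. For RBPMS it was -2 without CBP 0 h replicate 2, and for RGS8 -1 without CBP 60 h replicate 1 or 2. Only genes ranked by net count or share were followed through every form. Under equal peak numbers other list members turned as well: FOXO3 from -6 to 2, TCF7L2 from -6 to 1, MAML2 from -2 to 2 and ACTN2 from -1 to 2. TGFB2 went from -8 to 0 and SMAD6 from -6 to 0. FOXO1 (-7 to -3), MEGF10 (-8 to -2) and CDH2 (-7 to -5) stayed net closed. The cause was not tested. The planned search of promoter sequence was not run, as no sequence was used here.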
